A study of Mus musculus with 20 samples.

Results

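Macrophages given the CpG oligodeoxynucleotide for 9 h were compared with unstimulated macrophages (0 h) at every transcribed enhancer of the deposited table. Members were chosen by their labels alone, as the 2 CpG 9 h libraries and the 2 unstimulated libraries, 4 of the 20 libraries of the series. All groups came from C57BL/6 mice, as macrophages grown from bone marrow with M-CSF. The other groups used here were CpG for 3 h and for 15 h, interferon gamma (IFN-γ) for 9 h, and IFN-γ together with CpG for 9 h, each with 2 libraries that the series calls biological replicates. Polarization of macrophages by IL-4 and IL-10 also appears in the labels' protocols, which do not state whether the cells of these libraries were polarized. The unstimulated cells were a 0 h group, so that 9 h of CpG and 9 h of further culture cannot be told apart. Transcription was read by nAnT-iCAGE, a cap analysis of gene expression without amplification, which counts the capped 5′ ends of RNA. The table held 11222 enhancers, of which 2792 had enough tags to be tested.

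Unmethylated CpG DNA is the ligand of TLR9, a receptor of the endosome that signals through the adaptor MyD88 to NF-κB, AP-1 and IRF factors and so starts an inflammatory programme in macrophages. Active enhancers are transcribed in both directions into short, mostly unstable RNAs, and the number of capped ends at an enhancer is commonly taken as a reading of its activity. IFN-γ acts by another route, through its own receptor at the cell surface. An oligonucleotide of this kind is shown because its CG pairs, here in capitals, are the part that TLR9 recognises. It is 20 bases long and holds 2 such pairs. The labels' protocol names it for a stimulation longer than any of these libraries, so that its use in these libraries is not stated:
CpG ODN-1826: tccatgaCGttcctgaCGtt

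The CpG 9 h libraries held 13420361 and 13465651 tags in all and the unstimulated libraries 13826739 and 13435564. Of these, 21658 and 21296 tags lay in enhancers with CpG, against 22026 and 20301 in unstimulated cells. The enhancer signal as a whole was thus 1598 ± 22.8 RPM (reads, here tags, scaled to the whole library as in the deposited table) with CpG and 1552 ± 58.0 in unstimulated cells (mean ± SD, n = 2 each), a difference of 45.7 (exact permutation test, two-sided, p = 0.667, where 2 libraries against 2 cannot go below 0.333). With single libraries left out the difference ranged between 4.66 and 86.7 RPM. A tested enhancer had a median of 3 tags in a library. Replicates correlated across enhancers at r = 0.751 with CpG and 0.802 unstimulated, and the libraries of each pair differed beyond sampling noise (chi-square over its degrees of freedom 1.17 and 1.19). Deposited starts are printed as given, in mm39, since whether they count from 0 or 1 is not stated. No annotation of mm39 was at hand, so genes, exons and introns at these positions and the sequences there are not analysed here.

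Called changes with CpG lay at a minority of tested enhancers, in both directions. Of 2792 tested enhancers, 125 rose (4.48%) and 70 fell (2.51%), 195 in all (6.98%; edgeR quasi-likelihood test, Benjamini-Hochberg adjusted p under 0.05). On simulated counts the same test recovered 62% of 4-fold rises but 8% of 4-fold falls. These counts therefore give neither the extent of the response nor the balance of its directions. Both CpG libraries lay above both unstimulated libraries at all 125 rises and below both at all 70 falls, which the call itself favours; over all tested enhancers 28.2% lay above and 21.6% below. Called rises started from very little, which the call itself favours at this depth. Their median was 18 tags over the 2 CpG libraries (0.669 RPM) and 1 tag over the 2 unstimulated libraries (0.0362 RPM). Called falls had a median of 3 tags (0.112 RPM) with CpG and 23 tags (0.840 RPM) unstimulated, and 30 of the 70 kept at least 4 CpG tags. Over all tested enhancers the medians were 7 tags with CpG and 6 unstimulated. The median log2 change was 3.81 for the rises and -2.78 for the falls, beside 0.05 for all tested enhancers. In bulk RNA of this kind, fewer cells with an active enhancer and less RNA per cell cannot be told apart. Every library mattered to the counts. With the same 2792 enhancers tested, 33 rose and 20 fell without unstimulated replicate 1, 34 and 18 without unstimulated replicate 2, 57 and 13 without CpG replicate 1, and 70 and 16 without CpG replicate 2. DESeq2 called 34 rises and 7 falls. With the same enhancers tested, 22 rises and 6 falls passed without any 1 of the 4 libraries. This core was picked after its values were seen, and below "passed without any 1 library" is meant in this way. With the filter on low counts refitted to the libraries left, which tests more enhancers, 13 of these rises and 4 of these falls passed each time, and 11 enhancers lost the call at least once.

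**Figure D1:**
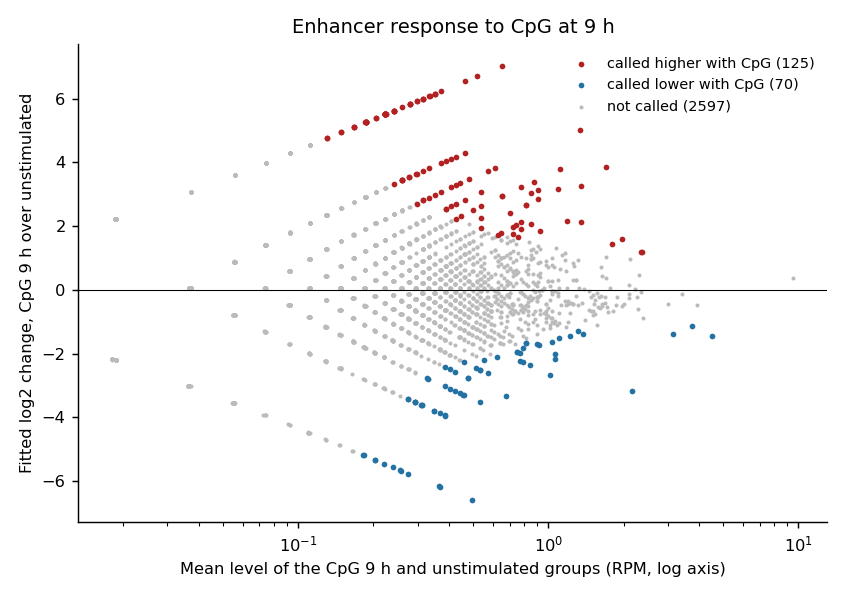
Fitted log2 change of CpG 9 h over unstimulated cells (vertical axis) against the mean level of both groups in RPM (horizontal log axis), 1 point per tested enhancer. The 125 called rises and 70 called falls stand out from the uncalled points, and the slanted lines of points are enhancers with 0 or few tags in 1 group.

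Some rises appeared at enhancers without a single tag in unstimulated cells. There were 372 tested enhancers of this kind, whose direction is fixed by the choice, and 54 of them were called higher (14.5%). A group count of 0 allows a level of up to 3 tags, and folds are given against that floor over the group. Here and below, "at least" refers to this floor alone. The counting error of the higher count is not included, so that a true fold can be smaller. The highest was chr19:10822778-10823211, with 15 and 20 tags in the CpG 9 h libraries and 0 in both unstimulated libraries. It stood at 1.30 ± 0.260 RPM with CpG, at least 11.8-fold higher (edgeR adjusted p = 6.16e-08). On chromosome 7, chr7:126752700-126752963 had 11 and 17 tags with CpG and 0 and 0 unstimulated, at least 9.46-fold higher (edgeR adjusted p = 9.18e-06). The enhancer at chr2:117129364-117129727 had 12 and 13 tags with CpG and 0 and 0 unstimulated, at least 8.45-fold higher (edgeR adjusted p = 1.07e-05). In these 3 enhancers the groups did not overlap, as at every called enhancer. Each of the 3 passed without any 1 library, also with the filter refitted.

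The next members described had 17 to 20 tags over the 2 CpG libraries. The enhancer chr19:32173751-32173942 had 12 and 8 tags with CpG and none unstimulated, at least 6.76-fold higher (edgeR adjusted p = 7.76e-04). The enhancer chr6:129147059-129147244 had 9 and 10 tags against none, at least 6.42-fold higher (edgeR adjusted p = 5.17e-04). At chr5:65042388-65042734 there were 12 and 6 tags against none, at least 6.08-fold higher (edgeR adjusted p = 6.20e-04). The 2 CpG libraries lay farther apart at the last of these, which had 0.894 and 0.446 RPM. At chr5:136063685-136064190 and at chr7:140578806-140579072, picked from the core after their values were seen, the counts were the same, 8 and 9 tags with CpG and none unstimulated, at least 5.75-fold higher (edgeR adjusted p = 9.25e-04 for each). All 5 passed without any 1 library with the same enhancers tested. With the filter refitted each lost its call without unstimulated replicate 1 (adjusted p = 0.0632, 0.0569, 0.0575, 0.0745 and 0.0738 in the order given), and the last pair also without unstimulated replicate 2 (0.0581 and 0.0559). At chr18:52698524-52698867, with 8 and 11 tags against none (at least 6.42-fold, edgeR adjusted p = 0.00136), the call was lost without unstimulated replicate 1 (adjusted p = 0.0540). At chr10:111410106-111410310, with 11 and 8 tags against none (at least 6.42-fold, edgeR adjusted p = 0.00589), the call was lost without CpG replicate 1 (adjusted p = 0.0660) and without unstimulated replicate 1 (0.0876) or 2 (0.0926).

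Other rises had at least 1 tag in unstimulated cells. The call was made for 35 enhancers with 1 to 3 unstimulated tags and for 36 with 4 or more. As a group count of 0 allows up to 3 tags, the 35 cannot be told apart from rises without a tag. Among the 36 the largest log2 change was at chr19:11349540-11350041, with 38 and 48 tags in the CpG 9 h libraries and 5 and 1 in the unstimulated libraries. Its level was 3.20 ± 0.518 RPM with CpG and 0.218 ± 0.203 RPM unstimulated, a fitted log2 change of 3.84 with a standard error of 0.48 (edgeR adjusted p = 2.11e-12). The enhancer chr17:56268411-56268705 had 33 tags in each CpG library and 4 and 3 in the unstimulated libraries, a log2 change of 3.25 ± 0.50 (edgeR adjusted p = 5.34e-08). At chr11:96713520-96713807 the counts were 21 and 22 with CpG and 1 and 3 unstimulated, a log2 change of 3.40 ± 0.61 (edgeR adjusted p = 8.25e-06). Replicates of CpG were close at these enhancers and the groups lay far apart.

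Elsewhere the CpG replicates themselves differed. At chr2:131993602-131993901 they held 40 and 16 tags, against 1 and 3 unstimulated (log2 change 3.78 ± 0.58, edgeR adjusted p = 5.24e-08). At chr13:5839351-5839665 they held 36 and 17 tags, against 5 and 1 (3.15 ± 0.52, edgeR adjusted p = 6.55e-07). In both the lower CpG library still lay well above the higher unstimulated one. The counts were 19 and 19 against 2 and 2 at chr16:44599087-44599524 (log2 change 3.22 ± 0.64, edgeR adjusted p = 9.13e-05). They were 25 and 19 against 4 and 1 at chr14:103274507-103274952 (3.13 ± 0.57, edgeR adjusted p = 1.13e-05), and 24 and 17 against 3 and 2 at chr11:94583332-94583832 (3.03 ± 0.59, edgeR adjusted p = 6.77e-05). These 8 enhancers with at least 4 unstimulated tags each passed without any 1 of the 4 libraries, also with the filter refitted.

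One large rise had 2 unstimulated tags and was chosen after its values were seen. The enhancer chr13:113750503-113750811 had 37 and 33 tags with CpG and 0 and 2 unstimulated, which is 2.60 ± 0.217 RPM against 0.0744 ± 0.105 RPM. Its ratio was 35.5, with an exact 95% counting interval of 9.46 to 299 (edgeR adjusted p = 3.69e-12), and it too passed without any 1 library in both ways. The enhancers chr15:78455876-78456220 and chr7:127662458-127662930, also picked from the core, had identical counts of 16 and 15 tags with CpG and 2 and 2 unstimulated (log2 change 2.93 ± 0.67, edgeR adjusted p = 0.00105 for each, and 0.0738 without unstimulated replicate 1 and the filter refitted). A further core member, chr4:102482258-102482552, had 24 and 19 tags with CpG and 5 and 1 unstimulated (log2 change 2.85 ± 0.58, edgeR adjusted p = 1.52e-04, and 0.0618 without unstimulated replicate 2 and the filter refitted).

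**Figure D2:**
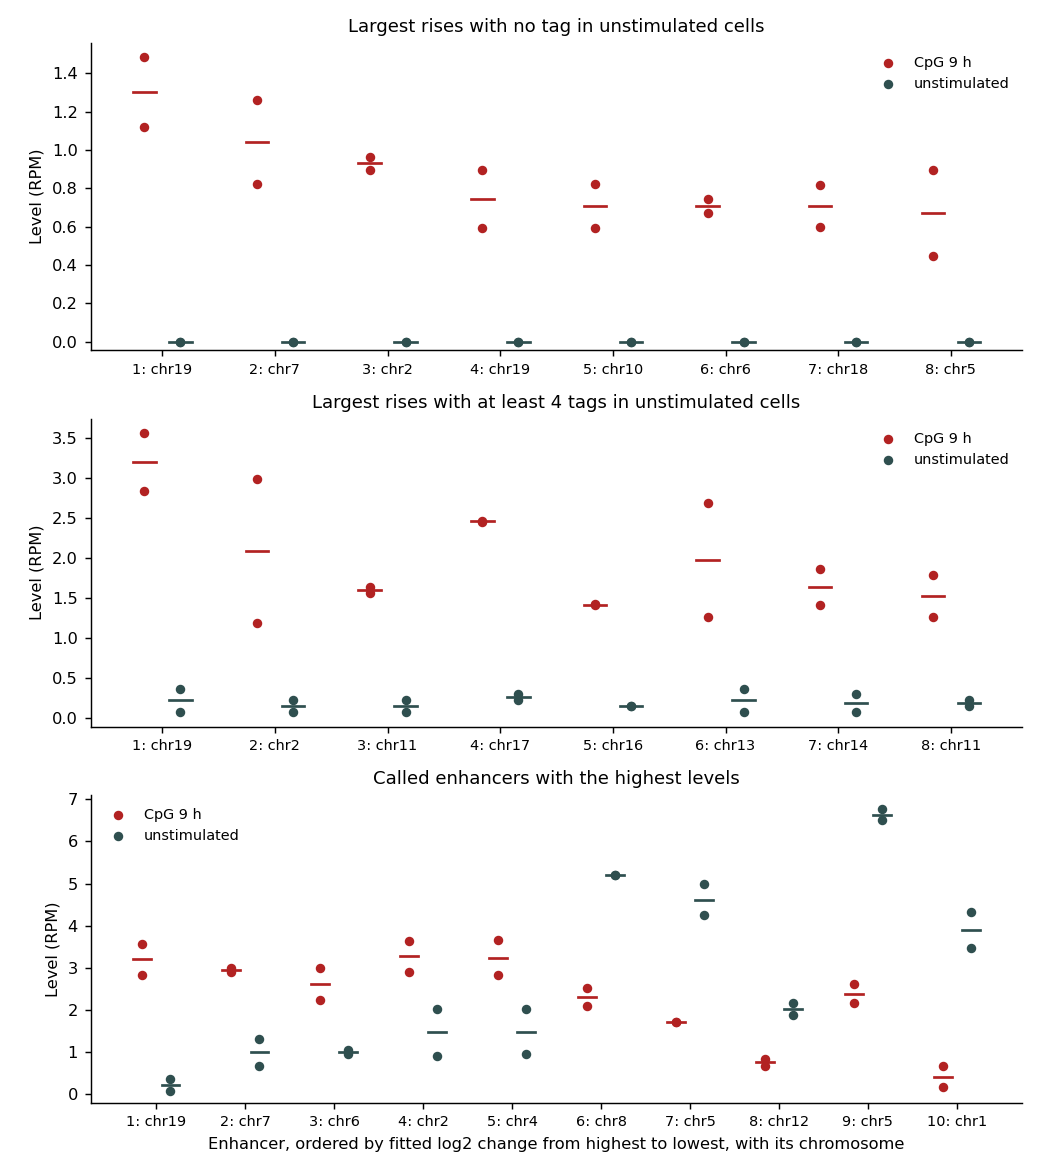
Level in RPM (vertical axes) of each library, with CpG 9 h points left of unstimulated points and a bar at each mean (n = 2), for 8 rises without an unstimulated tag, 8 rises with at least 4 unstimulated tags, and 10 called enhancers of high level. The 2 groups are separate at every enhancer shown, which the choice of enhancers required. The lower panel runs from rises at the left to falls at the right.

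The falls reached some of the most active enhancers of unstimulated cells. At chr5:34684166-34684741 the CpG 9 h libraries had 35 and 29 tags, against 90 and 91 tags in the unstimulated libraries. The level was 2.38 ± 0.321 RPM with CpG and 6.64 ± 0.187 RPM unstimulated, a log2 change of -1.44 ± 0.28 (edgeR adjusted p = 6.77e-05). At chr5:114083055-114083713 the libraries held 23 and 23 tags with CpG and 69 and 57 unstimulated, a log2 change of -1.39 ± 0.31 (edgeR adjusted p = 6.67e-04). Both kept a clear level under CpG. The fall was deeper at chr1:128518463-128519014, with 2 and 9 tags with CpG against 48 and 58 unstimulated, a log2 change of -3.18 ± 0.43 (edgeR adjusted p = 1.38e-10). Its 11 CpG tags still lay above the median of 7 over all tested enhancers. The enhancer chr6:99413267-99413599, picked from the core, had 4 and 3 tags with CpG and 19 and 29 unstimulated (-2.67 ± 0.55, edgeR adjusted p = 1.52e-04). Each of these 4 falls passed without any 1 library, but with the filter refitted chr6:99413267-99413599 lost its call without unstimulated replicate 2 (adjusted p = 0.0701).

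Of 249 tested enhancers without a tag in the CpG 9 h libraries, 12 were called lower; 28 further falls had 1 to 3 CpG tags and 30 had at least 4. The deepest was chr5:102650068-102650610, with 0 and 0 tags with CpG and 10 and 17 unstimulated, a fall of at least 8.88-fold (edgeR adjusted p = 8.07e-05), which passed without any 1 library. The other 7 of the 8 largest falls had 12 to 20 unstimulated tags and were at least 3.94-fold to at least 6.57-fold lower. Each of these 7 lost its call without at least 1 of the 4 libraries, and their adjusted p then reached up to 0.204. The adjusted p of chr1:128326811-128327315 was 0.00337 with all libraries (0 and 0 tags with CpG, 9 and 11 unstimulated). It was 0.0610 and 0.0634 without CpG replicates 1 and 2, and 0.0255 and 0.0529 without unstimulated replicates 1 and 2. At chr4:135912762-135913073, with 0 and 0 tags against 10 and 4, it was 0.00743 with all libraries and 0.0971, 0.0920, 0.142 and 0.0107 without CpG replicates 1 and 2 and unstimulated replicates 1 and 2 in turn.

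At 4 further called enhancers of high level the call was lost without single libraries. At chr7:75319181-75319526 the counts were 40 and 39 with CpG and 18 and 9 unstimulated, a log2 change of 1.60 ± 0.36 (edgeR adjusted p = 8.11e-04, and 0.0991 without unstimulated replicate 2). At chr2:30818921-30819384 they were 39 and 49 with CpG and 28 and 12 unstimulated (1.20 ± 0.33, edgeR adjusted p = 0.00972, and 0.105 without CpG replicate 2 and 0.320 without unstimulated replicate 2). The spread between the unstimulated libraries was wide in both. At chr4:141600258-141600694 the counts were 49 and 38 with CpG and 13 and 27 unstimulated (1.17 ± 0.33, edgeR adjusted p = 0.0147, and 0.185 without CpG replicate 1 and 0.365 without unstimulated replicate 1). The fall at chr12:85532576-85533227, with 11 and 9 tags against 26 and 29 (-1.39 ± 0.42, edgeR adjusted p = 0.0231), had an adjusted p between 0.0722 and 0.178 without each of the 4 libraries. Groups did not overlap at any of these 4 enhancers, which their choice required.

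Calls of 1 direction lay near each other at 11 loci when called enhancers within 50 kb were joined, 7 higher and 4 lower. There were 9 with 20 kb and 13 with 100 kb. Uncalled enhancers lay between the members of some loci. How often tested enhancers in general lie as close was not counted. The nearest deposited enhancer lay within 10 kb for 77.6% of rises, 72.9% of falls and 77.4% of all tested enhancers. The locus chr4:62183758-62201074 held 3 rises over 17.3 kb. Its members chr4:62183758-62184020, chr4:62185308-62185782 and chr4:62200596-62201074 had 6 and 6, 8 and 15, and 7 and 3 tags with CpG, against 0 and 0, 2 and 2, and 0 and 0 unstimulated. The other 3 tested enhancers there had positive fitted changes without passing, of which chr4:62205680-62206227 had 15 tags over the 2 CpG libraries and 4 over the unstimulated ones (log2 change 1.90 ± 0.77, edgeR adjusted p = 0.11). The locus chr17:18091886-18121430 held 3 rises over 29.5 kb, with 8 and 5, 8 and 7, and 7 and 7 tags with CpG against 1 and 0, 0 and 0, and 1 and 0 unstimulated. Of its 6 other tested enhancers 5 had a positive and 1 a negative fitted change. The locus chr1:170804547-170845645 held 3 rises over 41.1 kb, with 7 and 6, 7 and 7, and 6 and 1 tags with CpG and none in either unstimulated library. The 2 other tested enhancers there, chr1:170826041-170826461 and chr1:170865623-170865728, had 8 and 3 tags over the CpG libraries and 5 and 3 over the unstimulated ones (edgeR adjusted p = 0.679 and 1).

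The paired rises included chr8:71067165-71067416, with 13 and 16 tags with CpG and 1 and 1 unstimulated (ratio 14.7, counting interval 3.72 to 127, edgeR adjusted p = 4.11e-04), which passed without any 1 library. Its partner chr8:71071385-71071886 had 9 and 6 tags against 0 and 2 (edgeR adjusted p = 0.0400) and did not pass without any of the 4 libraries (0.0559 to 0.345). Between these and the next enhancers upstream the response differed. The enhancers chr8:71061809-71062486 and chr8:71062686-71063373, about 4 to 5 kb away, had 48 and 71 tags over the CpG libraries and 48 and 54 over the unstimulated libraries (edgeR adjusted p = 0.996 and 0.418). On chromosome 4 a single neighbourhood held opposite calls. The rises chr4:144968031-144968383 and chr4:144996628-144997090 had 13 and 19 tags over the 2 CpG libraries, against 0 and 4 unstimulated, while chr4:144948427-144949032 had 1 tag with CpG and 20 unstimulated (log2 change -3.94).

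Falls also lay near each other. The locus chr10:120460150-120472344 held 3 falls over 12.2 kb, with 1 and 3, 5 and 3, and 1 and 6 tags with CpG against 11 and 10, 19 and 15, and 16 and 20 unstimulated. The locus chr4:47278496-47319721 held 3 falls over 41.2 kb, with 1 and 2, 1 and 0, and 2 and 4 tags with CpG against 16 and 7, 10 and 5, and 16 and 12 unstimulated. At chr8:84928192-84930939 the 2 falls stood among 6 other tested enhancers, all of which had negative fitted changes without passing. The 2 were chr8:84928192-84928495, with 28 and 34 tags with CpG and 72 and 70 unstimulated (log2 change -1.13 ± 0.29, edgeR adjusted p = 0.00511), and chr8:84930648-84930939, with 2 and 1 tags against 18 and 16 (ratio 11.2, counting interval 3.52 to 56.9, edgeR adjusted p = 5.17e-04). Neighbouring enhancers can share transcripts and are not replicates of each other. Of the locus members named here, chr8:71067165-71067416 and chr8:84930648-84930939 passed without any 1 library; with the filter refitted chr8:84930648-84930939 lost its call without CpG replicate 2 (adjusted p = 0.0509). Each of the others lost its call without at least 1 of the 4 libraries. Several lost it whichever of the 4 was left out, among them chr17:18121001-18121430, chr1:170804547-170805130 and chr4:47278496-47278790.

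**Figure D3:**
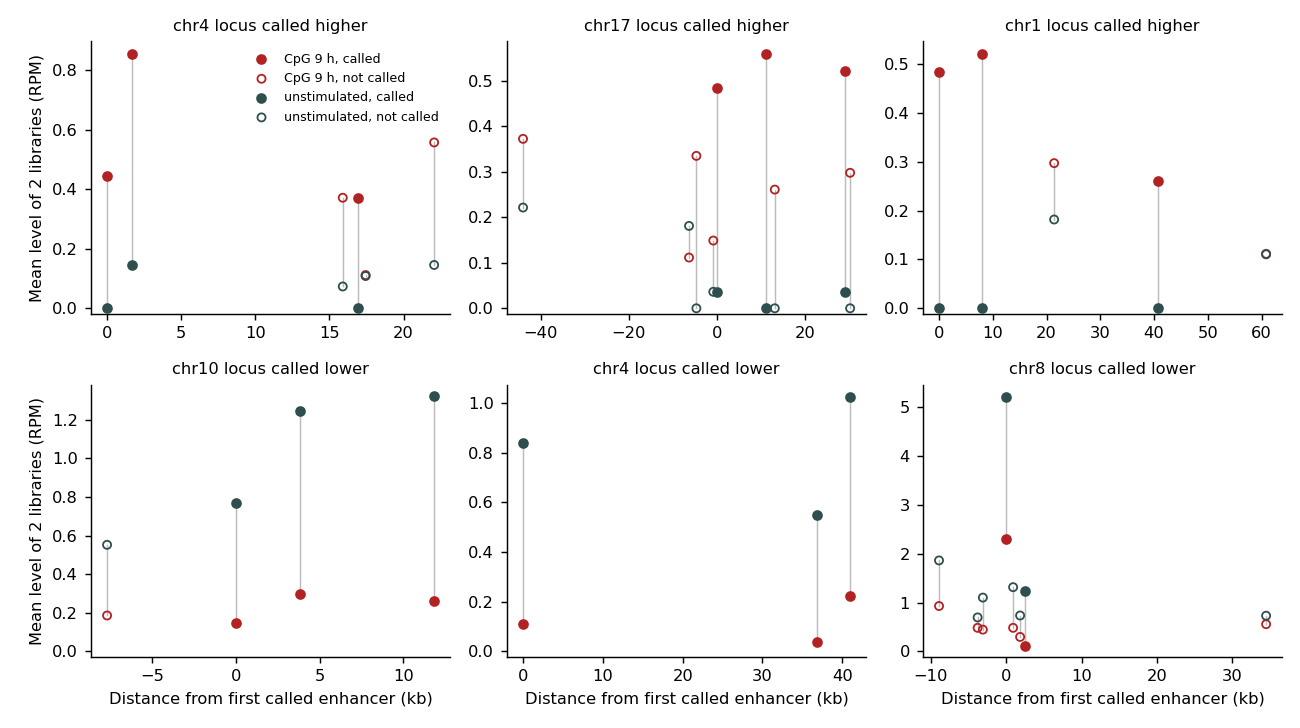
Mean level in RPM of CpG 9 h and unstimulated libraries (vertical axes, n = 2 each) by distance in kb from the first called enhancer (horizontal axes) at 6 loci; filled points are called enhancers and open points tested but uncalled ones, with a line joining the groups. CpG points lie above at the called enhancers of the upper row and below at those of the lower row.

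Called enhancers were spread over the genome. Chromosomes 1 and 4 each had 10.3% of their tested enhancers called (12 rises and 9 falls of 203, and 10 and 8 of 174), beside 6.98% over all, and chromosome 13 the least of the autosomes at 3.2% (2 rises and 2 falls of 125). Chromosome 2 had 14 rises and 3 falls of 222, and chromosome 17 had 7 and 1 of 149, whereas chromosome 10 had 2 rises and 5 falls of 156. Calls were more frequent where levels gave more tags: split into 4 equal bins of mean RPM over all libraries, 12.6% of the highest bin was called, against 4.73% of the lowest. Width showed no such gradient, with 6.73, 6.59, 8.17 and 6.45% called from the narrowest to the widest of 4 bins. The median width was 381 bases for rises, 393 for falls and 372 for all tested enhancers. The nearest deposited enhancer lay at a median of 1.85 kb from rises, 2.57 kb from falls and 2.00 kb from all tested enhancers.

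Few enhancers were called between 9 h and the neighbouring times by the same test. Against CpG at 3 h, 13 enhancers were called (0.466%), 7 higher and 6 lower at 9 h, of which 7 were also called against unstimulated cells. CpG at 15 h against CpG at 9 h gave 0 calls in edgeR (0.0%; 166 at an unadjusted p under 0.05) and 0 in DESeq2 (54 unadjusted), which does not show that the times are alike; limma on log2(RPM + 0.5) called 6. Summed over the 125 rises, chosen at 9 h, the level was 15.0 ± 0.734 RPM unstimulated and 50.4 ± 3.29, 110 ± 2.84 and 89.8 ± 7.56 RPM after 3, 9 and 15 h of CpG. Over the 70 falls it was 81.5 ± 2.69 RPM unstimulated and 34.8 ± 0.473, 17.6 ± 0.905 and 22.3 ± 3.00 RPM at those times.

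The levels of single enhancers over time are described here for enhancers chosen by their 9 h calls. The enhancer chr19:11349540-11350041 stood at 0.218 ± 0.203 RPM unstimulated and 0.490 ± 0.153, 3.20 ± 0.518 and 4.81 ± 0.0477 RPM at 3, 9 and 15 h of CpG. Its 9 h level was higher than its 3 h level (log2 2.44 ± 0.41, edgeR adjusted p = 1.15e-05), and 15 h was not called against 9 h (adjusted p = 0.758). The enhancer chr9:7871545-7872319, also called against 3 h, stood at 0.220 ± 0.00447 RPM unstimulated and at 0.226 ± 0.103, 1.41 ± 0.109 and 1.55 ± 0.199 RPM (9 h over 3 h log2 2.35 ± 0.59, edgeR adjusted p = 0.0269). Its call against unstimulated cells was lost without unstimulated replicate 1 when the filter was refitted. The enhancer chr17:56268411-56268705 stood at 0.256 ± 0.0467 RPM unstimulated and 2.42 ± 0.144, 2.45 ± 0.00585 and 1.01 ± 0.342 RPM. Neither 9 h against 3 h (log2 -0.22 ± 0.33, edgeR adjusted p = 0.871) nor 15 h against 9 h (adjusted p = 0.436) was called there. The level of chr13:113750503-113750811 was 0.0744 ± 0.105 RPM unstimulated and 1.06 ± 0.197, 2.60 ± 0.217 and 1.43 ± 0.146 RPM, with no call against either neighbouring time (edgeR adjusted p = 0.208 against 3 h and 0.776 for 15 h against 9 h). At chr2:131993602-131993901 the 9 h replicates spread widely, and the levels were 0.148 ± 0.107 RPM unstimulated and 0.795 ± 0.279, 2.08 ± 1.27 and 1.32 ± 0.0170 RPM, again with no such call (edgeR adjusted p = 0.213 and 0.873).

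Levels at 3 h were also low at several falls. The level of chr5:34684166-34684741 was 6.64 ± 0.187 RPM unstimulated and 2.56 ± 0.387, 2.38 ± 0.321 and 2.01 ± 0.522 RPM at 3, 9 and 15 h. That of chr1:128518463-128519014 was 3.89 ± 0.598 RPM unstimulated and 0.679 ± 0.0962, 0.409 ± 0.367 and 0.771 ± 0.648 RPM. At chr6:99413267-99413599 the levels were 1.77 ± 0.555 RPM unstimulated and 0.681 ± 0.117, 0.260 ± 0.0532 and 0.465 ± 0.104 RPM. The 9 h level was lower than the 3 h level at chr5:114083055-114083713, with 4.62 ± 0.529 RPM unstimulated and 3.59 ± 0.430, 1.71 ± 0.00408 and 2.33 ± 0.359 RPM (9 h over 3 h log2 -1.31 ± 0.32, edgeR adjusted p = 0.0163). Leaving out single libraries of the 3 h comparison left 1 to 4 of its 13 calls: 1 without CpG 3 h replicate 1, 4 without CpG 3 h replicate 2, 4 without CpG 9 h replicate 1 and 3 without CpG 9 h replicate 2. The library totals in place of TMM gave 12 calls, 11 higher and 1 lower at 9 h, where the median over all tested enhancers moved by 0.23 (log2). DESeq2 and the run with no filter on low counts each gave 1 call, higher at 9 h, and 0 lower.

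**Figure D4:**
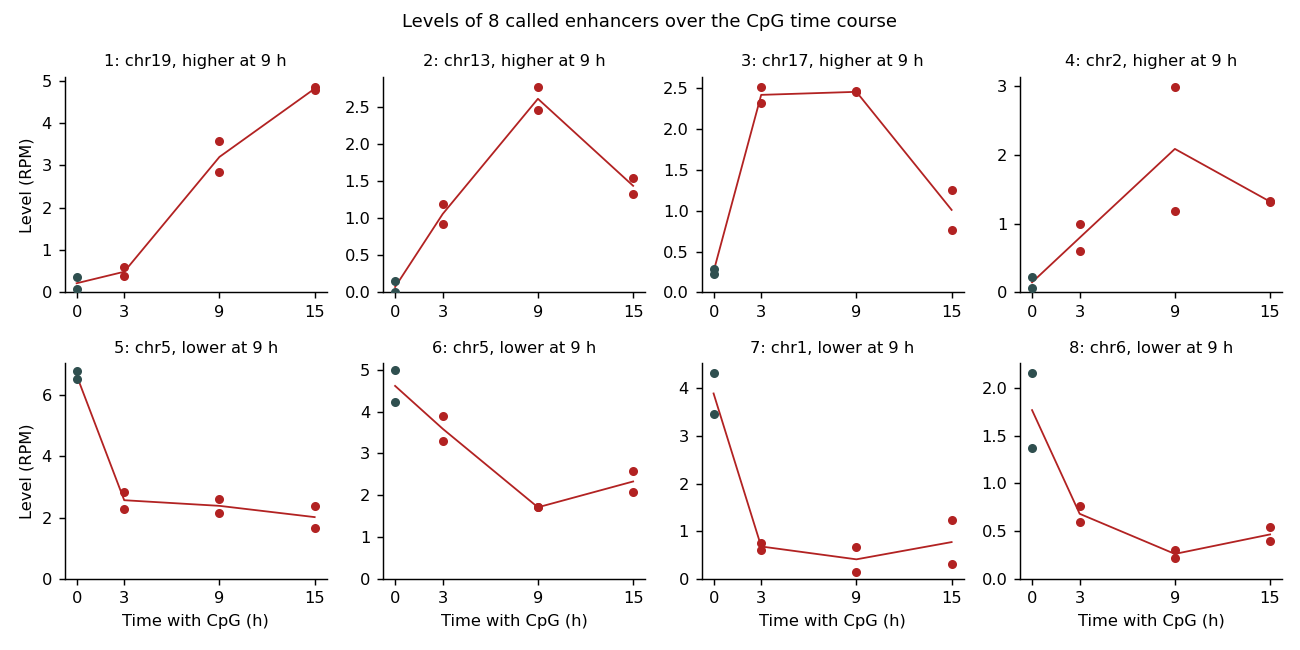
Level in RPM (vertical axes) at 0, 3, 9 and 15 h of CpG (horizontal axes) for 8 called enhancers, 1 point per library and a line through the means (n = 2); 0 h is unstimulated. Panels 1 to 4 are the core rises with most CpG 9 h tags, chr19:11349540-11350041, chr13:113750503-113750811, chr17:56268411-56268705 and chr2:131993602-131993901; panels 5 to 8 are the core falls with most unstimulated tags, chr5:34684166-34684741, chr5:114083055-114083713, chr1:128518463-128519014 and chr6:99413267-99413599.

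Beside IFN-γ at the same time, the CpG rises were mostly not seen at the same level. CpG at 9 h against IFN-γ at 9 h gave 270 enhancers higher (9.67%) and 341 lower (12.2%) with CpG. Among the 125 rises, which the same CpG libraries had chosen, 78 were called higher with CpG than with IFN-γ and 1 lower. Their summed level was 110 ± 2.84 RPM with CpG, 28.2 ± 6.63 RPM with IFN-γ and 15.0 ± 0.734 RPM unstimulated. The rise chr17:56268411-56268705 stood at 2.45 ± 0.00585 RPM with CpG and 0.0726 ± 0.103 RPM with IFN-γ (log2 4.81 ± 0.64, edgeR adjusted p = 8.62e-11). At chr6:146014641-146015042 the CpG level lay above and the IFN-γ level below the unstimulated one, with 2.60 ± 0.532 RPM with CpG, 0.108 ± 0.0507 RPM with IFN-γ and 0.991 ± 0.0720 RPM unstimulated (CpG over IFN-γ log2 4.36 ± 0.60, edgeR adjusted p = 1.52e-10). Its call against unstimulated cells (adjusted p = 0.00860) was lost without CpG replicate 1 (0.146) and without unstimulated replicate 1 (0.120) or 2 (0.0719). The 1 rise called lower with CpG than with IFN-γ was chr11:106642928-106643391, with 1.00 ± 0.265 RPM with CpG, 2.03 ± 0.624 RPM with IFN-γ and 0.291 ± 0.202 RPM unstimulated (log2 -1.11 ± 0.39 for CpG over IFN-γ, edgeR adjusted p = 0.0276). It was a rise against unstimulated cells at an adjusted p of 0.0349, which was 0.257 without CpG replicate 1 and 0.0671 and 0.338 without unstimulated replicates 1 and 2.

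Summed over the falls, the IFN-γ level lay between those of CpG and unstimulated cells. The choice of falls favours this, since the same CpG and unstimulated libraries had picked them as low and high. Of the 70 falls, 17 were called lower with CpG than with IFN-γ and 0 higher. Over all tested enhancers 12.2% were called lower and 9.67% higher. Their sum was 17.6 ± 0.905 RPM with CpG, 32.8 ± 4.56 RPM with IFN-γ and 81.5 ± 2.69 RPM unstimulated. The enhancer chr5:34684166-34684741 had 2.38 ± 0.321 RPM with CpG, 2.43 ± 0.677 RPM with IFN-γ and 6.64 ± 0.187 RPM unstimulated. At chr4:135912762-135913073 no tag was found with CpG, while IFN-γ gave 0.797 ± 0.00369 RPM and unstimulated cells 0.510 ± 0.301 RPM (CpG against IFN-γ edgeR adjusted p = 9.51e-05). The 611 called differences from IFN-γ were 293 and 284 without CpG replicates 1 and 2, and 392 and 234 without IFN-γ replicates 1 and 2, with the same enhancers tested.

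IFN-γ plus CpG was also compared with IFN-γ alone at 9 h. The contrast uses none of the 4 libraries compared above, but all 20 libraries shared the filter, the scaling and the estimate of spread in 1 fit. Over all tested enhancers 117 were higher (4.19%) and 63 lower (2.26%) with CpG added. The split moved with the scale: limma called 122 higher and 156 lower after adding 0.5 RPM, 119 and 112 after adding 0.1, and 95 and 136 after adding 2, and whole-library totals in edgeR gave 69 and 59. Among the 125 rises, 42 were called higher (33.6%) and 0 lower, and 112 had a positive fitted change (89.6%, beside 49.3% of all tested enhancers). Among the 70 falls, 10 were called lower (14.3%) and 0 higher, and 60 had a negative fitted change (85.7%, beside 50.0% of all). The median log2 change on top of IFN-γ was 1.86 for the rises and -1.51 for the falls, beside -0.00 for all tested enhancers. The calls shared by both comparisons depended on single libraries, with the same enhancers tested: 29 rises and 3 falls without CpG replicate 1, 30 and 4 without CpG replicate 2, 17 and 4 without unstimulated replicate 1, and 18 and 5 without unstimulated replicate 2. On the side of IFN-γ they were 25 and 2 without replicate 1 and 12 and 5 without replicate 2 of IFN-γ plus CpG, and 14 and 3 without replicate 1 and 8 and 6 without replicate 2 of IFN-γ. DESeq2 shared 7 rises and 2 falls.

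The largest rise with at least 4 unstimulated tags was called there too: chr19:11349540-11350041 had 4.93 ± 0.0889 RPM with both agents and 0.290 ± 0.206 RPM with IFN-γ alone (log2 4.21 ± 0.42, edgeR adjusted p = 4.99e-20). The enhancer chr13:113750503-113750811 had 1.18 ± 0.165 RPM with both and 0.145 ± 0.205 RPM with IFN-γ (log2 3.10 ± 0.65, edgeR adjusted p = 3.92e-04). At chr5:136063685-136064190 the level was 0.645 ± 0.0561 RPM with both, and each IFN-γ library held 0 tags (edgeR adjusted p = 9.23e-04). Not every rise passed there: chr6:146014641-146015042 had 0.304 ± 0.216 RPM with both and 0.108 ± 0.0507 RPM with IFN-γ (log2 1.56 ± 0.93, edgeR adjusted p = 0.325). Among the falls, chr5:34684166-34684741 had 0.759 ± 0.104 RPM with both and 2.43 ± 0.677 RPM with IFN-γ (log2 -1.51 ± 0.39, edgeR adjusted p = 0.00787). The fall chr12:85532576-85533227 had 0.835 ± 0.11 RPM with both and 0.760 ± 0.0547 RPM with IFN-γ (0.28 ± 0.49, edgeR adjusted p = 0.792).

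**Figure D5:**
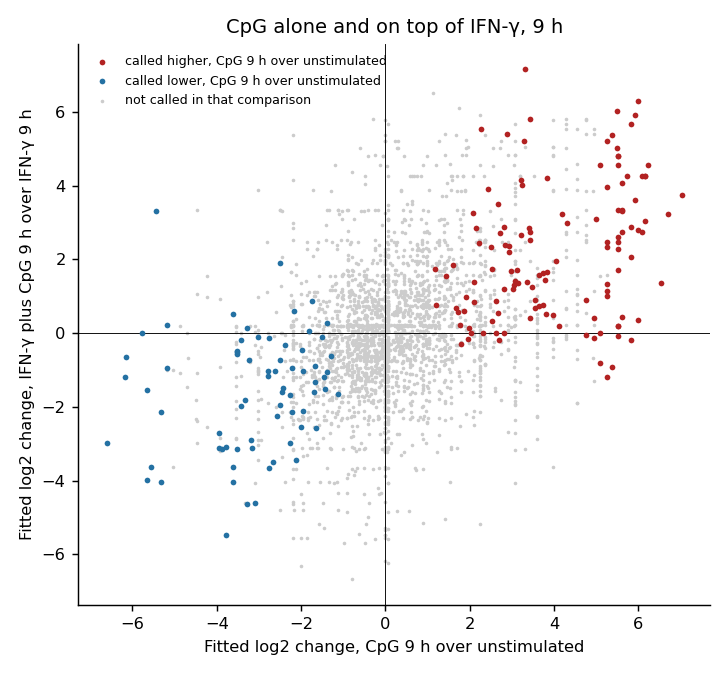
Fitted log2 change of IFN-γ plus CpG over IFN-γ at 9 h (vertical axis) against that of CpG over unstimulated cells at 9 h (horizontal axis), 1 point per tested enhancer; the axes share no library but come from 1 fit. Of the 125 enhancers called higher on the horizontal axis 112 lie above 0 on the vertical one, and of the 70 called lower 60 lie below 0.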

How the data were processed

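Per the labels' protocols, TRIzol RNA was made into nAnT-iCAGE libraries. The submitters' processing notes list HISAT2 2.1.0, BWA 0.7.10, Trimmomatic 0.38 and FastQC 0.11.5, with mm39 as build; how enhancers were called is not given in the sources used here. Raw tag counts per enhancer and library were deposited by the authors. A second deposited table, named TPM, held RPM: the count divided by it gave 1 whole-library total per library.

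Counts were tested with edgeR 4.0.16 in R 4.3.3 (quasi-likelihood, robust, TMM, 1 coefficient for each of 10 groups over 20 libraries, 10 residual degrees of freedom) on enhancers that filterByExpr kept at count 5 and total 15 as minima. The common coefficient of variation was 17.8%. Calls had a Benjamini-Hochberg adjusted p under 0.05. Errors of log2 changes are the change divided by the square root of F. Intervals (exact, 95%) cover counting error only. Floors cover that of the group count of 0 and not that of the higher count. On simulated counts for CpG 9 h against unstimulated cells with 2792 enhancers, the test recovered 92% of 8-fold, 62% of 4-fold and 4% of 2-fold rises and 8% of 4-fold falls. There, 0% of calls were false. The simulation gave each enhancer its mean over the 20 libraries in every group, apart from the planted changes, with the fitted spread. It did not copy the near-empty unstimulated groups of many called rises. Its 0% thus does not give the share of false calls in the data.

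Named were the 8 largest rises without unstimulated tags, the 8 largest with at least 4, the 8 largest falls, the 5 of highest level each way, and members of loci. Others are marked. Locus members aside, naming required both CpG libraries beyond both unstimulated ones, and a mean of at least 5 tags in the higher group. Members and lists were chosen with earlier results of these data known. Genes, gene lists, cell markers and motifs were not analysed because the annotation at hand is of an older build. Alternatives were DESeq2 1.42.0, limma 3.58.1, other factors and filters, the replicate block, the compared groups alone and leaving out libraries.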

Additional observations from a re-analysis of the deposited data

Results flagged for a closer look

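In 13 enhancers the response to CpG differed between 9 h and 3 h, by an edgeR test of the 2 times against each other; values are log2 changes of CpG 9 h over CpG 3 h. Higher at 9 h were chr1:64341957-64342488 by 3.05, chr5:142804435-142804856 by 2.76, chr5:127692522-127692927 by 2.57 and chr19:11349540-11350041 by 2.44. Also higher were chr9:7871545-7872319 by 2.35, chr5:124618045-124618717 by 2.31 and chr4:141600258-141600694 by 1.52. The level at chr5:142804435-142804856 was 0.967 ± 0.108 RPM at 9 h and 0.115 ± 0.162 RPM at 3 h, with 1.39 ± 0.0283 RPM unstimulated, and 9 h was not called against unstimulated cells (edgeR adjusted p = 0.537). At chr1:64341957-64342488 it was 1.19 ± 0.318 RPM at 9 h and 0.114 ± 0.0552 RPM at 3 h, with 0.658 ± 0.194 RPM unstimulated.

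Calls in both directions depended on the method: DESeq2 and the run with no filter on low counts each gave 1 higher and 0 lower. A stricter filter gave 13 higher and 14 lower, and limma on log2(RPM + 0.5) gave 30 and 5. Lower at 9 h in the main fit were chr8:68609764-68610230 at -4.46, chr17:81082639-81083136 at -4.03 and chr3:51102679-51103194 at -3.16. The others were chr10:12839072-12839363 at -2.71, chr16:43940028-43940452 at -1.74 and chr5:114083055-114083713 at -1.31. The level at chr8:68609764-68610230 was 0.0371 ± 0.0525 RPM at 9 h and 0.866 ± 0.360 RPM at 3 h, with 0.220 ± 0.00447 RPM unstimulated. At chr10:12839072-12839363 the level was 0.149 ± 0.211 RPM at 9 h and 0.868 ± 0.0399 RPM at 3 h, with 0.294 ± 0.00596 RPM unstimulated.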

How the results depend on the processing

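No call of CpG 9 h against unstimulated cells changed its sign under any alternative run. The sign of these calls had little room to change, since both CpG libraries lay beyond both unstimulated libraries at each. Over 1439 recomputed values of 75 enhancers, 942 stayed past the threshold, 497 did not and 0 changed direction. These values also cover the calls of CpG 9 h against CpG 3 h. The 195 calls became 74 with no filter on low counts, 41 with DESeq2 and 306 with limma on log2(RPM + 2). With the replicate block they became 179. The deviations of same-numbered libraries had a correlation of -0.01 across enhancers. At a median of 3 tags this value cannot show whether the numbers pair samples, which the labels do not say. The 13 calls between 9 h and 3 h of CpG became 1 with no filter, 27 with a stricter one, 1 with DESeq2, 35, 26 and 49 with limma after adding 0.5, 0.1 or 2, and 22 with the compared groups alone. The 0 calls between 15 h and 9 h became 6, 1 and 12 with limma after adding 0.5, 0.1 or 2. The 611 calls against IFN-γ became 382 with no filter, 326 with a stricter one and 180 with DESeq2. The 180 calls for CpG on top of IFN-γ became 68 with no filter, 28 with DESeq2 and 278 with limma after adding 0.5; the share of higher calls, 65.0%, became 53.9% with whole-library totals and 43.9, 51.5 and 41.1% with limma after adding 0.5, 0.1 or 2. Leaving out single libraries gave 36 to 86 calls against unstimulated cells, 1 to 4 against 3 h, 0 between 15 h and 9 h, 193 to 392 against IFN-γ and 29 to 59 on top of IFN-γ, and total differences of 4.66 to 86.7 RPM; the lone library is then assumed to vary like the other groups. Leaving out a library also removes tags, and other causes of these moves were not tested. At this depth (median 3 tags), most simulated 2-fold rises and 4-fold falls were below what the test detects. Leave-outs on the same enhancers and shared calls were added after seeing the data.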
